A study of Nothobranchius furzeri with 42 samples.

Results

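The genes described here are 80 of the 25475 genes of the African turquoise killifish (Nothobranchius furzeri) that were measured, namely those whose levels in liver and in kidney stand furthest above their levels in heart, muscle and spleen. They were chosen by their measured levels over all 42 RNA sequencing libraries. A level was the read count scaled to a common library total (CPM) after edgeR's trimmed mean of M-values (TMM) factors, and a tissue level was the mean of the alendronate mean and the placebo mean. Among the 9432 genes at 5 CPM or more in both liver and kidney, the 80 with the highest ratio of the lower of these 2 levels to the highest level in heart, muscle or spleen, plus 0.1 CPM, were taken. The tissue pattern is therefore how the members were found and not a result about them, and it is described without a test.

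Liver and kidney carry out some of the same chemistry. Hepatocytes and the cells of the proximal tubule are both known for making glucose from other substrates, breaking down amino acids, detoxifying compounds and moving organic solutes across their membranes. The kidney of bony fish also holds blood-forming tissue, so a kidney library mixes tubule cells with blood cell precursors. The deposited table does not pair its Ensembl gene IDs with names and 0 of the IDs matched the gene table at hand, so no function can be given for any member. The tissue labels could not be checked against named marker genes for the same reason, and no sequence is shown.

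All fish were females of the GRZ strain kept at 28 °C. From an age of 16 weeks, 5 fish lived for 3 weeks in water with 10 µM alendronate, a bisphosphonate that binds bone mineral and inhibits an enzyme of the mevalonate pathway, and 4 fish lived in water that received distilled water as placebo. Heart, liver, spleen, kidney and muscle of the caudal fin were taken at 19 weeks. Liver, heart and muscle have 9 libraries each (5 alendronate, 4 placebo), spleen has 8 (5 and 3) and kidney has 7 (5 and 2). Both liver and kidney were sequenced from 7 fish, alendronate fish 1 to 5 and placebo fish 2 and 3. The labels do not state the number of tanks, and all alendronate serial numbers come before the placebo ones. Treatment therefore cannot be told apart from tank or from this order, and p-values measure the spread between fish.

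Total counts ran from 20485992 to 35717250 per library. A small number of libraries stood apart. In spleen, 482 liver-enriched genes (at 10 times or more in liver over each other tissue) took 9.77% of the counts of alendronate fish 1 and 6.37% of those of alendronate fish 3, against 0.474% to 2.25% in the other spleens. In liver, alendronate fish 1 had a TMM factor of 0.687 and the other livers reached at most 0.515. The TMM factors of the kidney ran from 1.60 to 1.91. Because the factors of liver and kidney lie so far apart, statements on which of these tissues was higher depend on the scaling. The values without TMM factors are given with them.

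The members spanned a wide range of levels. The median member stood at 62.0 CPM in liver (5.40 to 1469 CPM) and at 34.4 CPM in kidney (5.67 to 469 CPM). The median was 0.124 CPM in heart, 0.322 CPM in muscle and 0.765 CPM in spleen. At 100 CPM or more were 28 members in liver, 16 in kidney and 13 in both. The 5 most abundant members of each tissue made up 39.5% of the summed liver level and 33.6% of the summed kidney level.

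**Figure D1:**
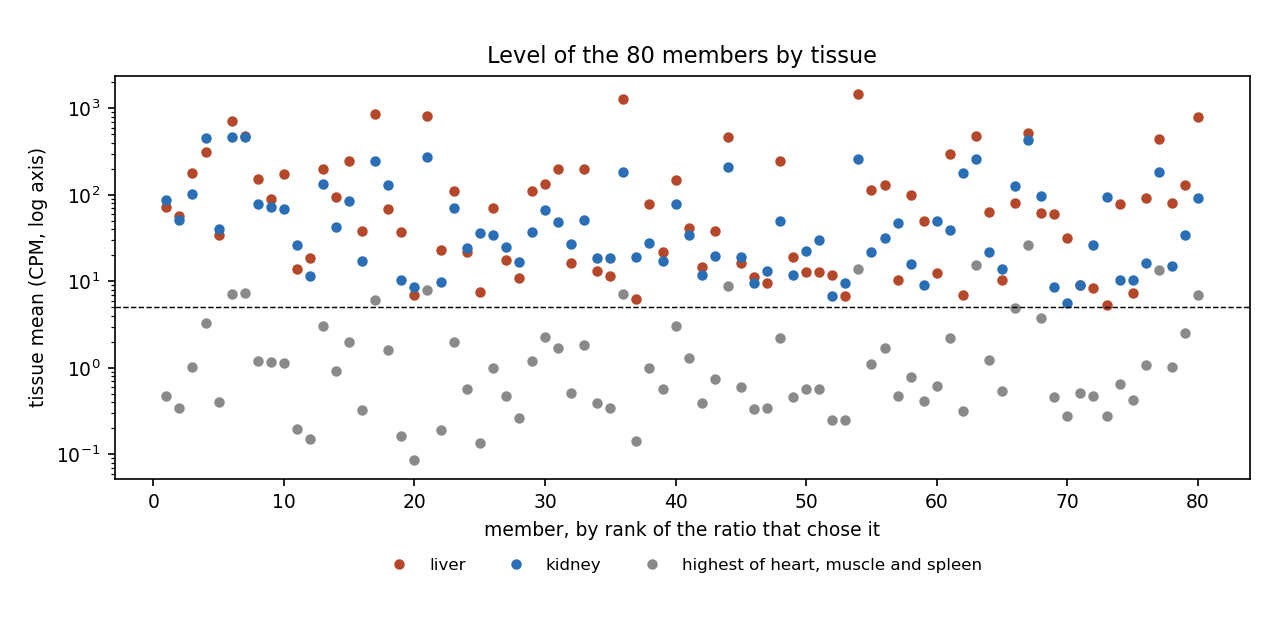
Tissue level of each of the 80 members in CPM on a log axis, ordered by the rank of the ratio that chose them, with 1 colour per tissue and the 5 CPM minimum as a dashed line. The liver and kidney points lie at 5.40 CPM and above, while the highest point of another tissue is a spleen level of 26.6 CPM.

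Outside liver and kidney the members were not all at 0. Spleen was the highest other tissue for 65 members, muscle for 13 and heart for 2. The spleen levels include alendronate fish 1 and 3, where the median member stood at 3.30 and 1.31 CPM. In the other spleens it stood at 0.171 to 0.496 CPM, and in the muscles at 0.0968 to 0.633 CPM. The order of the tissues without these 2 spleens was not computed. A level of 1 CPM or more was reached by 35 members in spleen, 18 in muscle and 10 in heart. Reads were found in every spleen library for 64 members, in every heart library for 33 and in every muscle library for 29. All 80 had reads in every liver and every kidney library. The highest spleen level was that of ENSNFUG00015000553, at 26.6 CPM beside 516 CPM in liver and 426 CPM in kidney. Its highest spleen, that of alendronate fish 1, held 72.4 CPM.

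Library by library, the lowest liver or kidney value lay above the highest of the 26 heart, muscle and spleen values for 77 of the 80 members. Of the 9432 genes in both tissues 2.68% did so. The count was 73 without TMM factors. For 64 members the highest of the 26 values came from the spleen of alendronate fish 1, the library with the most liver-enriched counts. Without the spleens of alendronate fish 1 and 3 the count stayed at 77. The rule chose the members for this gap in these same libraries. The high count is therefore largely built in, and nothing is read from it.

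The highest ratio, 125, belonged to ENSNFUG00015017394. In liver it was at 23.4, 72.5, 67.8, 136 and 72.6 CPM in alendronate fish 1 to 5 and at 80.2, 66.5, 79.0 and 53.4 CPM in placebo fish 1 to 4. In kidney it was at 40.9, 136, 71.8, 95.2 and 72.2 CPM in alendronate fish 1 to 5 and at 100 and 86.4 CPM in placebo fish 2 and 3. Alendronate fish 1 was lowest in both tissues, and the arms overlapped in both. Spleen held 0.0238 to 1.96 CPM, heart 0 to 0.271 CPM and muscle 0 to 1.37 CPM, so its lowest liver library was still well above every other tissue.

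ENSNFUG00015011613 had the next ratio, 113, with tissue levels of 56.9 CPM in liver and 50.8 CPM in kidney. Its 7 kidneys lay between 35.9 and 56.9 CPM, a narrower band than its 9 livers at 28.7 to 81.2 CPM. The next in order, ENSNFUG00015003917, had a ratio of 90.7 and levels of 177 CPM in liver and 103 CPM in kidney. Its livers held 51.5, 253, 160, 153 and 61.5 CPM with alendronate and 287, 185, 263 and 137 CPM with placebo. Alendronate fish 1 and 5 were low, and the arms overlapped.

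At the limit of the rule, rank 80 had a ratio of 13.07 and rank 81 a ratio of 13.03. Rank 80, ENSNFUG00015007152, was at 797 CPM in liver, 92.6 CPM in kidney and 6.99 CPM or less in the other tissues. ENSNFUG00015021090, just outside, was at 16.7 CPM in liver, 17.0 CPM in kidney and 1.18 CPM in spleen.

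Liver levels exceeded kidney levels for 51 of the 80 members under TMM scaling. The median log2 ratio of liver to kidney was 0.69, with quartiles of -0.50 and 1.58, and over all 9432 genes it was 0.08, with quartiles of -0.56 and 0.72. By tissue means 31 members were at least 2-fold higher in liver, 8 were at least 2-fold higher in kidney and 41 lay within 2-fold. Without TMM factors the median of all 9432 genes moved by -1.98 on the log2 scale, and 14 members were higher in liver. The split without factors was 1 member at least 2-fold higher in liver, 49 at least 2-fold higher in kidney and 30 within 2-fold. Relative to the median of all genes the members' median was 0.61 higher with TMM. It was 0.60 higher with size factors by the relative log expression (RLE) method and 0.58 without factors. Under each of the 3 scalings 50 members lay above that median. A factor acts on all genes of a library alike, so this likeness is largely built in. Both levels also entered the rule, and nothing is read from it.

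Within single fish, 35 members were higher in liver in all 7 fish, 13 were higher in kidney in all 7, and 32 were mixed. Among all 9432 genes 30.1% were higher in liver in all 7 fish and 25.6% were higher in kidney in all 7. Without TMM factors 3 members were higher in liver in all 7 fish and 48 higher in kidney in all 7, beside 3.19% and 87.3% of all genes. With RLE factors the counts were 35 and 13. Both levels entered the rule, so nothing is read from these shares.

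**Figure D2:**
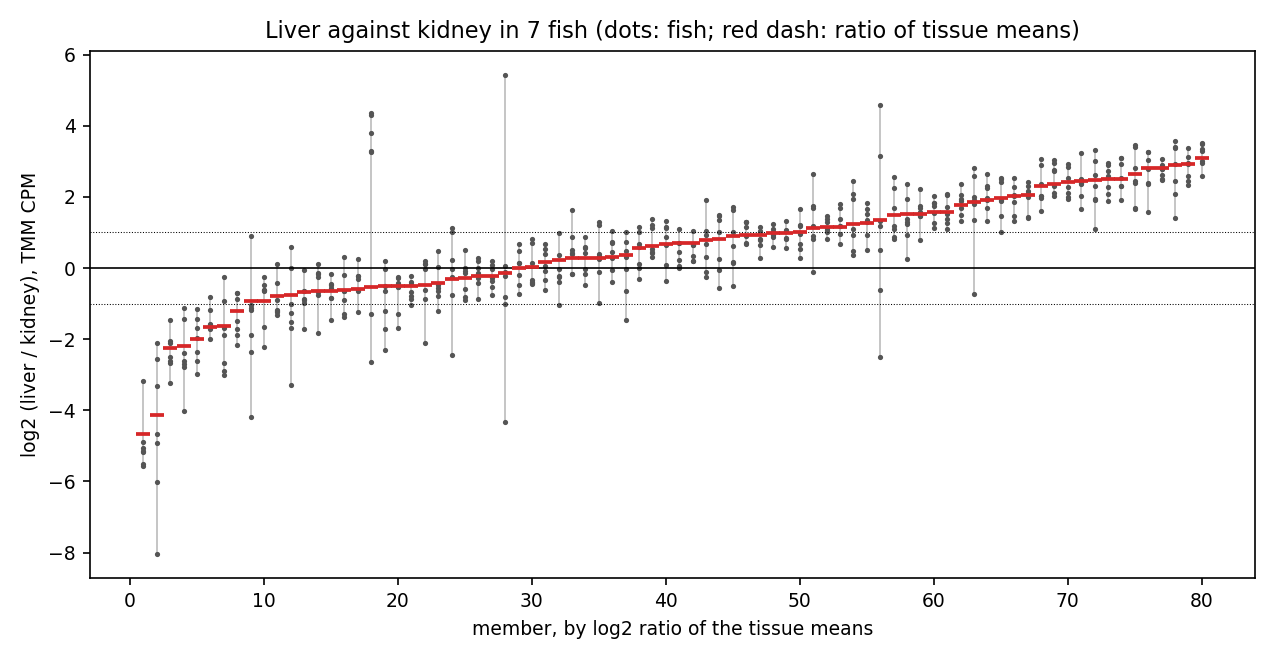
Log2 ratio of liver to kidney CPM for each member, ordered by the ratio of tissue means (red dash), with 1 dot for each of 7 fish. The log2 ratios of tissue means run from -4.66 to 3.10, and 41 members lie within 2-fold.

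The classes that follow are those of TMM scaling. The 8 members at least 2-fold higher in kidney were low in liver, with a median of 7.98 CPM there against 41.6 CPM in kidney. The 31 members at least 2-fold higher in liver had medians of 114 CPM in liver and 34.4 CPM in kidney. The 41 members within 2-fold had 22 and 26.4 CPM, and they held 14 of the 20 highest ratios. The 8 kidney-leaning members held 0 of these 20, although a ratio set by the lower level favours even members by construction.

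ENSNFUG00015014536 leaned most to kidney, at 177 CPM there and 7.01 CPM in liver, a 25.2-fold difference (106-fold without TMM factors). Its 7 kidneys held 91.7, 198, 233, 183 and 202 CPM in alendronate fish 1 to 5 and 118 and 227 CPM in placebo fish 2 and 3. Its log2 ratio of liver to kidney was between -5.56 and -3.19 in the 7 fish, and so on the kidney side in each fish. With ENSNFUG00015021245 it was 1 of 2 members that also met a 10-fold rule for kidney over each other tissue.

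ENSNFUG00015007152 leaned most to liver, by 8.60-fold (2.16-fold without TMM factors). Its livers held 506, 939, 965, 956 and 870 CPM with alendronate and 757, 955, 630 and 641 CPM with placebo, and its kidneys ran from 49.3 to 155 CPM. The log2 ratio lay between 2.60 and 3.52 in the 7 fish. The kidney level was 11.6% of the liver level, the lowest share among the members, and 46.4% without TMM factors.

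The most even member by tissue means, ENSNFUG00015001253, was at 9.0 CPM in both tissues. Its livers held 5.63 to 13.1 CPM and its kidneys 5.51 to 13.8 CPM, and the log2 ratio in single fish went from -0.72 to 0.67. Without TMM factors its log2 ratio of tissue means was -1.98, the shift of the median gene. In liver the most abundant member was ENSNFUG00015008032, at 1469 CPM, beside 257 CPM in kidney and 13.8 CPM in spleen, a 5.72-fold difference between liver and kidney (1.44-fold without TMM factors). Its 9 livers ran from 912 to 1991 CPM with a median of 1459 CPM, and its 7 kidneys from 152 to 379 CPM. Its spleen level included 78.3 CPM in alendronate fish 1. In kidney the most abundant was ENSNFUG00015013378, with 217, 883, 484, 353 and 451 CPM in alendronate fish 1 to 5 and 470 and 450 CPM in placebo fish 2 and 3. Alendronate fish 1 was lowest and fish 2 highest, on either side of the placebo kidneys. Its liver level was 480 CPM under TMM scaling, a log2 ratio to kidney of 0.03, and without TMM factors the log2 ratio was -1.97.

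The 80 genes together took 0.606% ± 0.130 (SD, n = 5) of liver counts with alendronate and 0.551% ± 0.0469 (SD, n = 4) with placebo. In kidney they took 1.04% ± 0.317 (SD, n = 5) and 1.17% ± 0.0304 (SD, n = 2). The share was 0.00728% to 0.01% in heart, 0.00295% to 0.00996% in muscle and 0.00852% to 0.0970% in spleen. The 95% Wilson interval of a library's share reached at most 0.00479 percentage points to either side, which covers counting error only and is far below the spread between fish.

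Summed over the members, the liver level was 7926, 15459, 13214, 15898 and 10903 CPM in alendronate fish 1 to 5. In placebo fish 1 to 4 it was 16800, 14674, 12718 and 10755 CPM. The arms overlapped, with means of 12680 ± 3321 CPM (SD, n = 5) and 13737 ± 2594 CPM (SD, n = 4), and alendronate fish 1 was lowest. The kidney sum was 3601, 9488, 5252, 5587 and 5971 CPM in alendronate fish 1 to 5 and 6528 and 6491 CPM in placebo fish 2 and 3. Both placebo kidneys lay inside the alendronate range, whose lowest value was fish 1 and whose highest was fish 2.

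**Figure D3:**
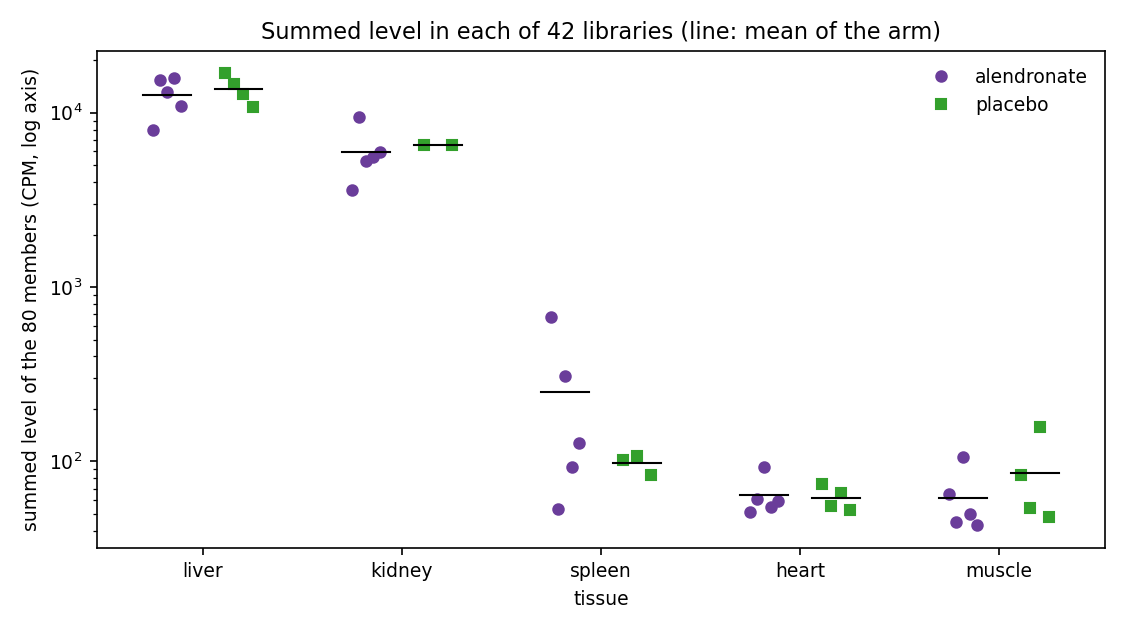
Summed level of the 80 members in each of the 42 libraries in CPM on a log axis, by tissue and arm, with a line at the mean of each arm. Liver lies between 7926 and 16800 CPM and kidney between 3601 and 9488 CPM, and the highest other library is a spleen at 672 CPM.

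Members varied more between fish than most genes of the same minimum level. The median SD of log2 levels within an arm was 0.50 for members in liver and 0.34 for all 9432 genes, and 0.48 and 0.28 in kidney. Above the median of all genes were 66 of 80 members in liver and 74 of 80 in kidney. The highest library was a median of 2.76 times the lowest in liver (2.06 for all genes) and 2.62 times the lowest in kidney (1.72 for all genes). A range of 10-fold or more was found for 7 members in liver and 3 in kidney, beside 2.17% and 1.89% of all genes. For the ratio between the 2 organs, a wide spread was not particular to the members. The SD over 7 fish of the log2 ratio of liver to kidney had a median of 0.54 for members and 0.37 for all genes. It was 0.79 for the liver-enriched genes and 1.06 for 376 genes enriched in kidney by the same 10-fold rule. Those genes are low in 1 of the 2 organs, and their SD within a tissue was not computed.

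Alendronate fish 1 was lowest for many members in both organs. It was the lowest liver for 48 members, the lowest kidney for 61 and the lowest in both for 38, beside 19.9%, 29.8% and 11.2% of all 9432 genes. Its median member stood 0.64 below the tissue median on the log2 scale in liver, where the median of all genes stood 0.06 below, and 0.66 below in kidney, where the median of all genes was at 0. Without TMM factors the counts were 7 in liver, 59 in kidney and 5 in both, beside 0.838%, 25.7% and 0.573% of all genes. The median member minus the median of all genes was then -0.52 in liver and -0.63 in kidney. With TMM factors the kidney of alendronate fish 1 was also the highest kidney for 30.3% of all genes, and for 0 members.

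As a share of counts, the members took 0.545% of that fish's liver, inside the range of the other livers, and 0.667% of its kidney, the lowest kidney share. The 376 kidney-enriched genes that are not members also took their lowest share of kidney counts in this fish, 2.18% beside 3.53% to 5.70% in the others. The liver-enriched genes took 57.2% of its liver counts beside 62.7% to 71.5%. In bulk tissue, fewer cells of a type and less RNA per cell cannot be told apart, and the part these shares play in the low values was not tested.

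The kidney of alendronate fish 2 was highest for 51 members, beside 19.8% of all genes. The count was 38 without TMM factors, beside 8.31% of all genes. Deviations from the member's mean over its arm in the tissue had the same sign in liver and kidney for 75 of 80 members in alendronate fish 1 and for 62 in alendronate fish 2, beside 70.9% and 65.4% of all 9432 genes. In alendronate fish 3, 4 and 5 the counts were 34, 48 and 45, beside 46.2%, 61.7% and 57.6%. In placebo fish 2 and 3 the counts were 30 and 40, beside 59.7% and 63.5%. The deviations of the 2 placebo kidneys mirror each other by construction. The medians of fish 1 were -0.53 in liver and -0.60 in kidney, and those of fish 2 were 0.19 and 0.59.

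**Figure D4:**
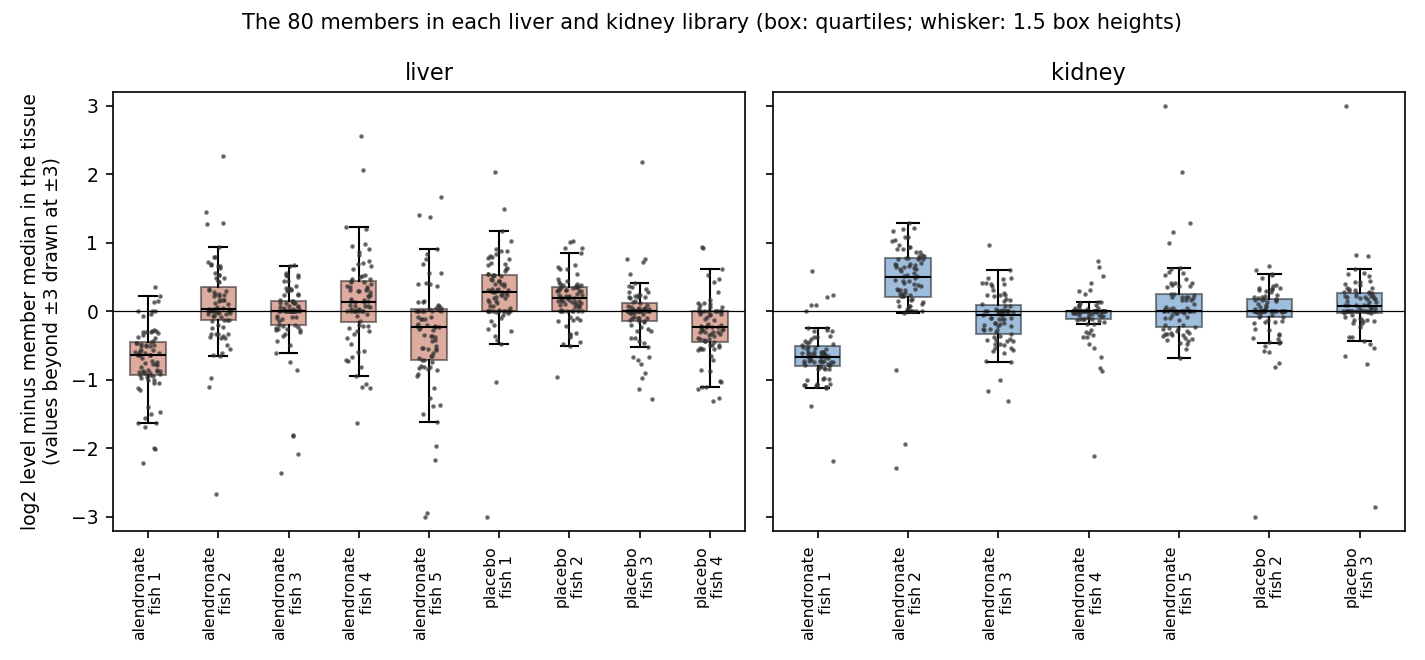
Log2 level of the 80 members minus each member's median in the tissue, for the 9 liver and 7 kidney libraries, as boxes of the quartiles with whiskers of 1.5 box heights and values beyond 3 drawn at 3. The box of alendronate fish 1 lies lowest in both tissues, with medians of -0.64 in liver and -0.66 in kidney.

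The following members were chosen after their values were seen, as the members with the widest or narrowest range. ENSNFUG00015012388 was at 0.777, 1.15, 0.604, 0.667 and 105 CPM in the kidneys of alendronate fish 1 to 5 and at 0.973 and 31.3 CPM in those of placebo fish 2 and 3. Alendronate fish 5 and placebo fish 3 thus carried its kidney level, and 5 of 7 kidneys were below 5 CPM, while its livers held an even 8.26 to 16.7 CPM. It met the rule for kidney through these 2 fish.

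ENSNFUG00015016716 ranged 107-fold in kidney, with 40.1, 6.86, 40.5, 26.2 and 59.3 CPM in alendronate fish 1 to 5 and 0.556 and 26.6 CPM in placebo fish 2 and 3. Placebo fish 2 was the low kidney, although its liver held 28.3 CPM. In liver it was low in alendronate fish 2, at 3.82 CPM, and in alendronate fish 5, at 2.86 CPM, which had the highest kidney. ENSNFUG00015021245 ranged 157-fold in liver, from 0.110 CPM in placebo fish 1 to 17.2 CPM in placebo fish 3, and held 20.2 to 194 CPM in kidney. These 3 are the members whose liver and kidney libraries did not all lie above every other library.

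ENSNFUG00015014977 was wide in both tissues. Its livers held 95.1, 230, 52.5, 399 and 31.1 CPM with alendronate and 388, 181, 88.7 and 80.9 CPM with placebo. Its kidneys held 41.9, 163, 81, 16.6 and 177 CPM with alendronate and 72.2 and 9.89 CPM with placebo. Alendronate fish 5 was lowest in liver and highest in kidney, the order shown by 3 members and by 1.06% of all genes. At the other end of the range, ENSNFUG00015011714 stayed within 108 to 178 CPM over the 9 livers and ENSNFUG00015020604 within 14.5 to 21.3 CPM over the 7 kidneys.

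Whether alendronate changed the members was tested gene by gene, since the rule weighted both arms equally and did not use their difference. No member passed an adjusted p of 0.05 in liver when edgeR's quasi-likelihood p-values were adjusted (Benjamini-Hochberg) over 15167 genes, where 0% of all genes did. At an unadjusted p under 0.05 there was 1 member higher with alendronate and 3 lower, beside 2.2% and 2.18% of all genes. DESeq2 called 0 members and put 4 below an unadjusted p of 0.05. The log2 change was above 0 for 28 members and below 0 for 52, beside 55.4% of all genes above 0. Its median was -0.12, against 0.04 for all genes tested. This depended on single fish. Without alendronate fish 1, 36 members were above 0 and the median was -0.05. Without alendronate fish 4, 20 were above 0 and the median was -0.25.

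In kidney 0 of 80 members passed by the same test over 19282 genes, where 0% of all genes did. At an unadjusted p under 0.05 there was 1 member higher and 0 lower, beside 1.27% and 0.436% of all genes. DESeq2 gave 0 and 1 at those 2 limits, with no adjusted p for 1 member. The log2 change was above 0 for 38 members and below 0 for 42, beside 56.3% of all genes above 0. Its median was -0.04 against 0.04 for all genes. With only 2 placebo kidneys this median depended on single alendronate fish. Without fish 1, 6 members were below an unadjusted p of 0.05 by edgeR and the median was 0.09. Without fish 2 there were 12, of which 11 were lower, and the median was -0.17. The share of all genes at that limit was not computed for these 2 fits, so nothing is read from their counts.

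Arms did not separate for any member in either organ. The number with every alendronate library above every placebo library was 0 in liver and 0 in kidney, beside 0.607% and 2.8% of all genes, and the number with every one below was 0 in both, beside 0.943% and 2.84%. The 95% interval of the log2 change lay within 2-fold either way for 54 members in liver (60.4% of all genes) and 37 in kidney (48.0%). For the remaining members the interval reached a 2-fold change in at least 1 direction. The median SE of a member's log2 change was 0.28 in liver and 0.33 in kidney.

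**Figure D5:**
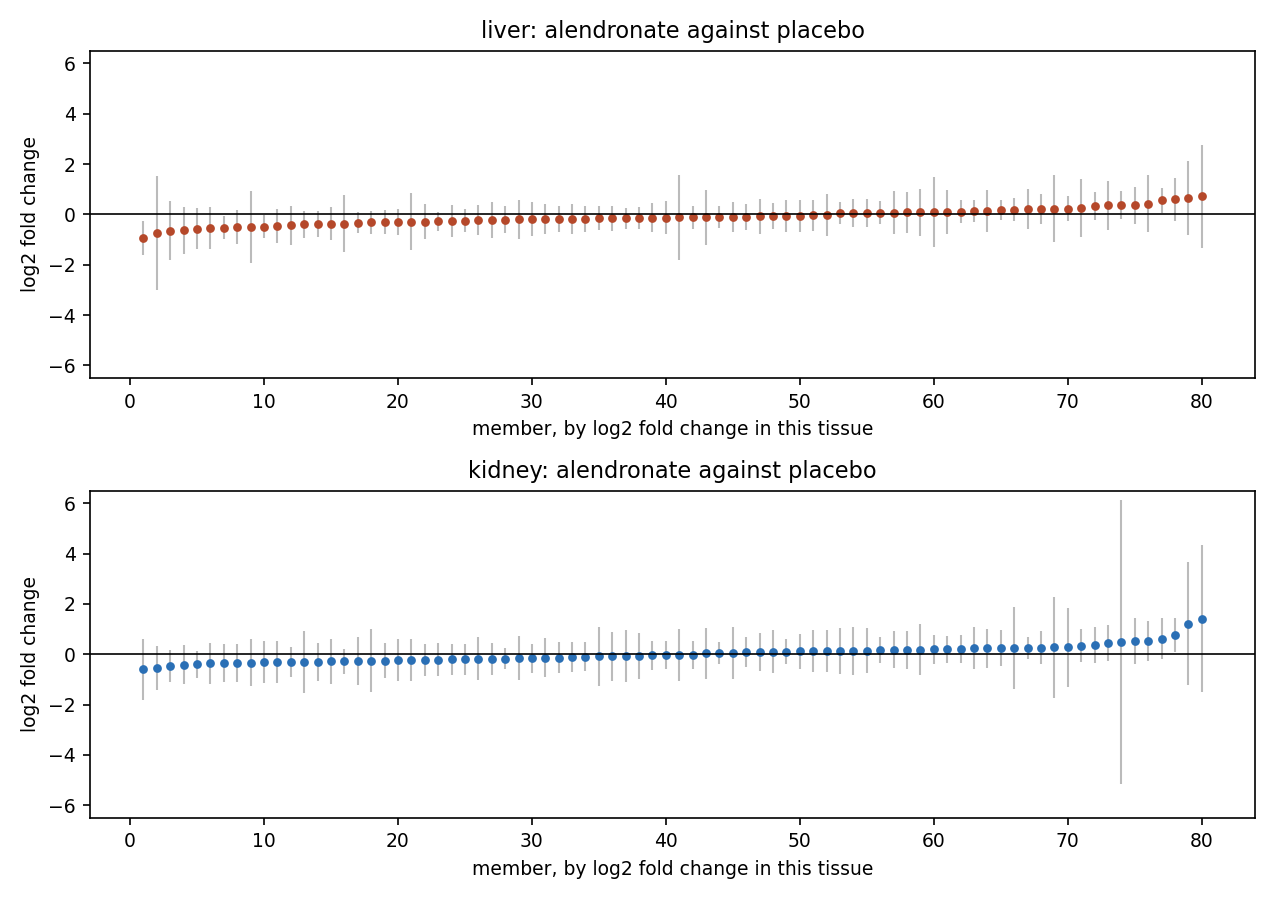
Log2 change with alendronate of each member in liver and in kidney, ordered by size, with the 95% interval of the edgeR fit as a grey line. The changes run from -0.94 to 0.71 in liver and from -0.61 to 1.41 in kidney, and 0 members passed an adjusted p of 0.05 in either.

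The member with the smallest p below 0 in liver was ENSNFUG00015014536, the most kidney-leaning gene. Its livers held 2.99, 4.11, 6.88, 3.92 and 5.52 CPM with alendronate and 11.6, 12.8, 6.30 and 6.58 CPM with placebo. All but 1 alendronate liver lay below every placebo liver. The log2 change was -0.94 (SE 0.30), with an edgeR adjusted p of 0.914, and in kidney it was 0.10 (SE 0.37).

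ENSNFUG00015003313 had the smallest p above 0 in liver, with 13.1, 19.8, 16.8, 20.6 and 26.0 CPM with alendronate and 15.0, 12.8, 10.1 and 16.1 CPM with placebo. Alendronate fish 1 lay among the placebo livers and the other 4 above them. The log2 change was 0.56 (SE 0.23), with an edgeR adjusted p of 0.914, and in kidney it was 0.20 (SE 0.23).

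ENSNFUG00015007076 had the smallest p above 0 in kidney, at 66.6, 158, 108, 105 and 103 CPM with alendronate and 67.7 and 60.4 CPM with placebo. Fish 1 lay between the placebo kidneys and the other 4 lay above both. The log2 change was 0.77 (SE 0.29), with an edgeR adjusted p of 1.0. In liver the same gene was at 215 ± 38.9 CPM (SD, n = 5) with alendronate and 280 ± 55.1 CPM (SD, n = 4) with placebo, a log2 change of -0.33 (SE 0.19). The difference between its liver and kidney changes was -1.11 (SE 0.36), with an edgeR adjusted p of 1.0.

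The smallest p below 0 in kidney belonged to ENSNFUG00015017729. It was at 14.6 ± 3.72 CPM (SD, n = 5) with alendronate and 19.5 ± 1.10 CPM (SD, n = 2) with placebo. Alendronate fish 2, at 19.7 CPM, lay between the placebo values of 18.7 and 20.2 CPM. The log2 change was -0.40 (SE 0.23), with an edgeR adjusted p of 1.0.

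Liver and kidney changes were also compared in a joint fit of 19712 genes. No member had a treatment change that differed between the organs at an adjusted p of 0.05 by edgeR, where 0% of all genes did. At an unadjusted p under 0.05 there was 1 member with a lower change in liver and 0 with a higher one, beside 1.37% and 1.31% of all genes, and DESeq2 gave 0 adjusted and 3 unadjusted. Changes were above 0 in both organs for 16 members, below 0 in both for 30, above 0 only in liver for 12 and above 0 only in kidney for 22. Of all genes tested in each organ, 55.4% were above 0 in liver and 56.3% in kidney. The split over both organs was not computed for all genes, so nothing is read from it. The 95% interval of the difference lay within 2-fold for 8 members (26.3% of all genes), and for the others it reached a 2-fold difference. This fit treats the libraries of a fish as independent. With each fish as a block, 0 members passed, and 3 members had a higher and 1 a lower change in liver at an unadjusted p under 0.05.

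In the other tissues fewer members had enough counts to test, 18 in heart, 22 in muscle and 69 in spleen. By edgeR 0 of them passed an adjusted p of 0.05 in any of the 3, beside 0%, 0.00641% and 0% of all genes. At an unadjusted p under 0.05 there were 0 in heart (1.43% of all genes higher, 1.2% lower), 0 higher and 2 lower in muscle (3.27% and 4.14%), and 0 in spleen (0.399% and 1.23%). DESeq2 gave no adjusted p to 1 of these members in heart, 18 in muscle and 3 in spleen. Its result for muscle thus covers few members. Of the rest it called 0 in each tissue, beside 1, 6 and 9 of all genes. The unadjusted DESeq2 counts of members were 0, 2 and 14. The spleen count was 17 in edgeR without alendronate fish 2 and 31 in a joint fit of all 42 libraries, each with 0 members passing the adjustment. For DESeq2 and these 2 fits the share of all genes at the unadjusted limit was not computed, so nothing is read from these counts.

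In spleen the arm mean was higher with alendronate for 78 of the 80 members, beside 49.2% of all 9432 genes. The summed level was 672, 53.5, 308, 92.7 and 128 CPM in alendronate fish 1 to 5 and 101, 107 and 84.0 CPM in placebo fish 2 to 4. Fish 1 and 3 were the high spleens and fish 2 the lowest. Without fish 1, 67 members were higher, and without fish 3, 77. Without both, 34 members were higher and 46 lower, beside 46.4% of all genes higher, and the sums averaged 91.3 and 97.5 CPM. Fish 1 was the highest spleen for 71 members, beside 26.1% of all genes.

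The spleens of fish 1 and 3 are also those with the most liver-enriched counts. In fish 1 the members stood at a median of 8.38% of their level in the liver of the same fish, and the liver-enriched genes at 8.19%. In fish 3 the medians were 2.40% and 2.42%. In the other 6 spleens they were 0.242% to 0.940% and 0.206% to 0.930%. The members and the liver-enriched genes were thus at nearly the same share of the liver in the 2 high spleens. They were as close in alendronate fish 5 (0.940% and 0.930%) and placebo fish 4 (0.436% and 0.426%). In proportion they were further apart in the remaining spleens, such as placebo fish 2 (0.727% and 0.406%). The part these shares play in the spleen values was not tested.

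Muscle of placebo fish 3 stood apart too, with a summed level of 158 CPM beside 43.1 to 106 CPM in the other 8 muscles. It was the highest muscle for 38 members, beside 5.15% of all genes. Members stood at a median of 1.24% of their level in the liver of that fish, while the liver-enriched genes stood at 0.242%. The kidney-enriched genes took 0.0254% of its counts, the most of any muscle, and their part in its high sum was not tested. The arm mean was higher with alendronate for 23 members with this library and for 42 without it. The share of all genes was not computed for either, so nothing is read from these counts.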

How the data were processed

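RNA was sequenced from 5 tissues of 9 fish as 42 libraries. The authors deposited raw counts of reads, 1 row per gene and 1 column per library. Per the submitters' processing notes the tools were STAR 2.7.10b, SAMtools 1.13, Trim Galore 0.6.10, FastQC 0.12.1, MultiQC 1.28, bcl2fastq and CASAVA. The genome build, annotation, counting program and strand setting are each not given in the sources used here. Thus antisense, overlapping and near-identical genes cannot be told apart. The table has 0 columns of no sample and 0 rows that name no gene, and 0 libraries were identical. The sample labels gave tissue, arm and fish, and a prefix in the title was read as 1 fish.

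Levels were CPM with TMM factors over all 42 libraries (edgeR 4.0.16, R 4.3.3). Each tissue was tested by edgeR's quasi-likelihood test with filterByExpr, TMM and robust fitting, and p-values were adjusted by Benjamini-Hochberg over all genes of that fit. The difference between liver and kidney was the product term of tissue and treatment over 16 libraries. The scripts were tested on simulated data. DESeq2 1.42.0, RLE factors, no filter, a joint fit, a replicate block and leaving out each library were the alternatives.

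The members, the gene lists and the rule for named genes were chosen with earlier results of these data known. That rule took the 3 highest ratios, the highest liver and kidney levels, the most liver-leaning, kidney-leaning and even members, ranks 80 and 81, and per organ the members with the smallest p above and below 0. Lists of metabolic genes and cell type markers could not be matched to IDs and were not tested. Libraries of the same fish pair liver with kidney. The same number in the alendronate and placebo arms marks different fish.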

Additional observations from a re-analysis of the deposited data

Results flagged for a closer look

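Of 62 groups of 4 to 10 libraries screened for a value far from the rest, 3 held one. Chance gives about 1 in 20 for unselected groups, but that rate does not apply here. Some of the members screened were chosen after their values were seen, for the width of their range. ENSNFUG00015012388 was chosen for the widest range in kidney, so its flag below follows from that choice. The summed member level in the heart of alendronate fish 3 was 93.0 CPM, and the next heart with alendronate held 61.1 CPM. The liver-enriched genes took 0.689% of the counts of that heart, the most of any heart, and their part in the sum was not tested. ENSNFUG00015007152 was at 506 CPM in the liver of alendronate fish 1 and at 870 CPM or more in the other livers with alendronate. That liver had a TMM factor of 0.687, beside 0.364 to 0.515 in the other livers with alendronate. A higher factor lowers every value of its library, and this flag was not screened without TMM factors. ENSNFUG00015012388 was at 105 CPM in the kidney of alendronate fish 5 and at 1.15 CPM or less in the other kidneys with alendronate.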

How the results depend on the processing

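In 81 alternatives the number of members called for alendronate was 0, including DESeq2, RLE factors, no filter and the joint fit. DESeq2 gave no adjusted p to 18 of the 22 members tested in muscle. Leaving out each library or fish in turn gave 0 in each case. Where this left 1 placebo kidney, that lone library was assumed to vary like the others. With a replicate block (the label number within a tissue, each fish for liver against kidney) the count was also 0, and 9 kidney members were below an unadjusted p of 0.05 instead of 1. By the sample titles the numbers do not pair the arms. Same-numbered livers correlated in their deviations at -0.32 to 0.39, and same-numbered kidneys at 0.37 and 0.002. These values cannot decide on pairing, since liver and kidney of the same fish correlated at only -0.02 to 0.62. The log2 changes of the 4 genes named for alendronate kept their sign in 52 alternatives. These genes were picked for the smallest p in the same libraries, so the kept signs are no independent check. Of the 80 members, 57 were also chosen without TMM factors, 78 with RLE factors and 62 with an offset of 1 CPM. Without the spleens of alendronate fish 1 and 3, 70 were chosen again, and without 1 fish 73 to 79. A minimum of 20 CPM kept 41, which by construction are the members at 20 CPM or more in both organs. The number higher in liver was 14 without TMM factors, 52 with RLE factors and 50 to 54 without 1 fish. Unadjusted counts in liver ran from 0 in the joint fit to 7 without alendronate fish 2 or placebo fish 4. Shares of all genes at an unadjusted p under 0.05 were computed for the main edgeR fits only. The scaling alternatives for the low and high fish, the separated libraries and the spleen arm means were chosen after seeing the data; lowest in both organs in alendronate fish 1 were 39 members with RLE factors and 33 with TMM within each tissue. Precision is set by the number of fish, above all by 2 placebo kidneys.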

Other observations

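The members with the highest levels outside liver and kidney were chosen after their values were seen. ENSNFUG00015000553 reached 26.6 CPM in spleen and 10.4 CPM in heart. ENSNFUG00015024123 had tissue levels of 15.5 CPM in heart, 12.4 CPM in muscle and 10.5 CPM in spleen, beside 482 CPM in liver and 258 CPM in kidney. Its heart libraries ran from 9.33 to 23.8 CPM. ENSNFUG00015004490 was at 13.4 CPM in heart, with 11 to 15.9 CPM over 9 libraries, and at 2.40 CPM in muscle and 9.90 CPM in spleen, beside 443 CPM in liver and 184 CPM in kidney.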
